A study of Homo sapiens with 8 samples.

Results

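The neuronal pentraxins NPTX1, NPTX2 and NPTXR were examined in hESCs of the H9 line, which is a widely used established line. They were taken by gene symbol, and all 3 are among the 19472 genes of the crowding table and the 19551 genes of the ETV4 KD table, and among the 17206 genes with enough reads to be tested in both. The family was chosen by the measured values of the crowding comparison, in which NPTX1 had the largest rise among the genes that met the thresholds below. Crowding values of the 3 genes are therefore given as a description without a test. The ETV4 KD comparison, whose values the rule of choice did not use, is tested. Earlier results of these data were known when the genes and tests were chosen.

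Poly-A RNA was sequenced in 8 libraries of 2 experiments. The first compared 2 low-density libraries, labelled small, with 2 high-density (crowded) libraries of unmodified H9 cells that could attach only to small islands of Matrigel. The second compared 2 shControl libraries with 2 shETV4 libraries, from H9 cells carrying a lentiviral control hairpin or a hairpin against ETV4, an ETS transcription factor of the PEA3 family. Per the study's methods, cells of the crowded cultures were left to grow for some days until they covered the islands. Whether both shETV4 libraries carry the same hairpin is not stated in the sources used here. All cells were kept on Matrigel in mTeSR1 or TeSR-E8 medium. The libraries held 50359703 to 62410168 counts on genes. ETV4 itself was at 90.8 and 95.1 FPKM in shControl and at 45.6 and 40.9 FPKM in shETV4, and at 73.2 and 72.6 FPKM at low density and 54.2 and 53.9 FPKM at high density. The pluripotency marker POU5F1 averaged 1135 and 1070 FPKM at low and high density and 1099 and 1347 FPKM in shControl and shETV4. FPKM counts fragments relative to transcript length and to all mapped fragments of a library.

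Neuronal pentraxins are a small family with a pentraxin domain, the fold shared with C-reactive protein. NPTX1 and NPTX2 are secreted, NPTXR is anchored in the membrane, and the 3 proteins join in mixed complexes that gather AMPA-type glutamate receptors at excitatory synapses. NPTX2, also called Narp, is known as an activity-regulated gene of neurons. NPTX1 has been described in human pluripotent cells as a secreted protein that binds TDGF1 (Cripto), the co-receptor of NODAL, and favours neural fate.

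On GRCh37, the build of the deposited values, NPTX1 lies on the minus strand at chr17:78440634-78451643, NPTX2 on the plus strand at chr7:98246597-98259181 and NPTXR on the minus strand at chr22:39214457-39240033. The canonical transcript of each has 5 exons, and the authors list the genes under NM_002522, NM_002523 and NM_014293. One lncRNA, ENSG00000290024, overlaps NPTX1 on the opposite strand. Per the study's methods the libraries were made with a stranded kit, but whether the counting used strand is not stated. It is therefore not known whether reads of that lncRNA entered the NPTX1 counts. The RefSeq promoter table matched 1 of the 3 genes, NPTX2. The 250 bases before its start are shown because NPTX2 moved with NPTX1 in both comparisons, and ETV4, the factor knocked down, binds ETS motifs. They lie at chr7:98617035-98617284 on the plus strand of GRCh38.p14. Capitals mark a CCAAT box and GC boxes.

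NPTX2: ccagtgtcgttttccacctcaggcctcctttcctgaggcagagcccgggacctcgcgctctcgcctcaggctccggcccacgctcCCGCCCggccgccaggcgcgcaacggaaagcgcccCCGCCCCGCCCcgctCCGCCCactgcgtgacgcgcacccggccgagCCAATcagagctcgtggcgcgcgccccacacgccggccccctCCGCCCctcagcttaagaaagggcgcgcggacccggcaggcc

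Searched on both strands, this window held no CCGGAA or AGGAAG (ETS), no GGAATG (TEAD) and no TGANTCA (AP-1). Of 35116 RefSeq promoter windows of the same length, 14.5%, 28.7%, 11.9% and 6.57% held these 4 motifs in that order. Only these letters were searched. Their absence does not settle whether the factors bind other sequences within the window, and it says nothing of binding elsewhere. A CCAAT box, found in 32.0% of windows, stood 84 bases before the start. The GC box GGGCGG, found in 42.6%, occurred 5 times on the opposite strand, 2 of them overlapping by 1 base. Both were searched after the sequence had been read. The window was 75.6% G or C against a median of 58.0%, and held 34 CpG against a median of 11.

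NPTX1 was near the floor of the measured range at low density and well inside it after crowding. Its level was 0.386 and 0.233 FPKM in the low-density libraries (121 and 88 reads) and 10.5 and 9.81 FPKM in the high-density libraries (3597 and 3819 reads). The groups did not overlap, and each crowded library was far above both low-density libraries. The means were 0.309 ± 0.108 and 10.2 ± 0.519 FPKM (SD, n = 2), and the log2 fold change of high against low density, fitted with edgeR, was 5.003 (SE 0.14). With 1 library left out the value lay between 4.66 and 5.39, a wider range than that SE conveys. In FPKM rank, NPTX1 stood at or above 24.9% and 19.7% of the genes of the table at low density and 72.7% and 71.3% at high density. The next gene in the same order was ADRA2A, the alpha-2A adrenergic receptor, with a log2 fold change of 4.31, from 0.343 ± 0.0728 to 7.07 ± 0.0721 FPKM (SD, n = 2). The lncRNA read-through gene BLOC1S5-TXNDC5, named after its values were seen, had a larger fitted value of 5.94 but did not meet the thresholds, since its counts of 7 and 24 at low density faced 36 and 2192 at high density (edgeR adjusted p = 0.307). It did meet them with DESeq2 (5.99, adjusted p = 0.0110), and with edgeR without low-density replicate 2 (6.92) or high-density replicate 1 (6.90).

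**Figure D1:**
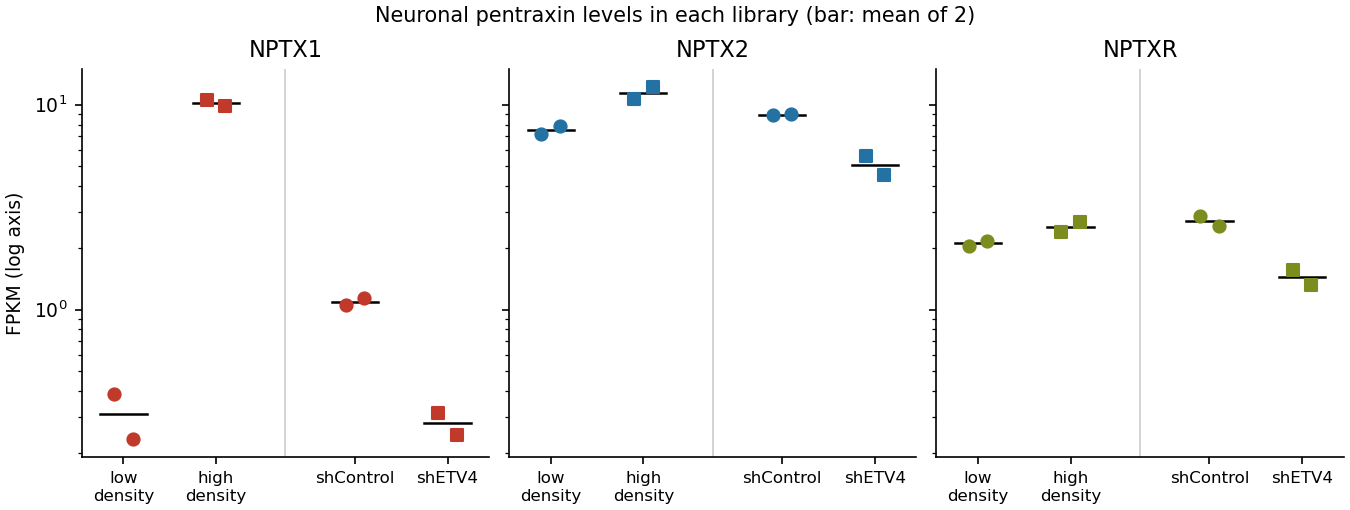
FPKM of NPTX1, NPTX2 and NPTXR (log axis) in each library of the 4 groups, with points for libraries (circles for low density and shControl, squares for high density and shETV4) and bars for the mean of 2. NPTX1 spans 0.233 to 10.5 FPKM, while NPTX2 and NPTXR keep within 4.54 to 12.2 and 1.32 to 2.85 FPKM.

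NPTX2 was the most abundant of the 3 at low density and rose less. Its level was 7.17 and 7.86 FPKM in the low-density libraries and 10.7 and 12.2 FPKM in the high-density libraries. Both crowded libraries were above both low-density libraries. The log2 fold change was 0.55 (SE 0.08), just past the study's limit of 0.5, and it was 0.49 without low-density replicate 1 and 0.45 without high-density replicate 2. NPTXR, the membrane-bound relative, was at 2.04 and 2.17 FPKM at low density and at 2.40 and 2.67 FPKM at high density. Its libraries did not overlap either, but the log2 fold change was 0.21 (SE 0.09), below the limit. High-density libraries both lay above low-density libraries for 35.4% of all genes tested, which is the background for the 3 of 3 seen here. Genes called higher at high density, with an adjusted p below 0.05 and a log2 fold change over 0.5, made up 10.7% of the 17672 tested, and NPTX1 and NPTX2 are among them by the values that chose the family.

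The make-up of the family shifted with crowding. NPTX1 gave 4.02% and 2.27% of the summed FPKM of the 3 genes at low density and 44.7% and 39.7% at high density. The sum went from 9.59 and 10.3 FPKM to 23.6 and 24.7 FPKM. At low density the order of levels was NPTX2, NPTXR, NPTX1, with no overlap between libraries of neighbouring genes. At high density NPTX1 (9.81 and 10.5 FPKM) and NPTX2 (10.7 and 12.2 FPKM) were close, with both NPTX2 libraries just above both NPTX1 libraries, and NPTXR was last.

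**Figure D2:**
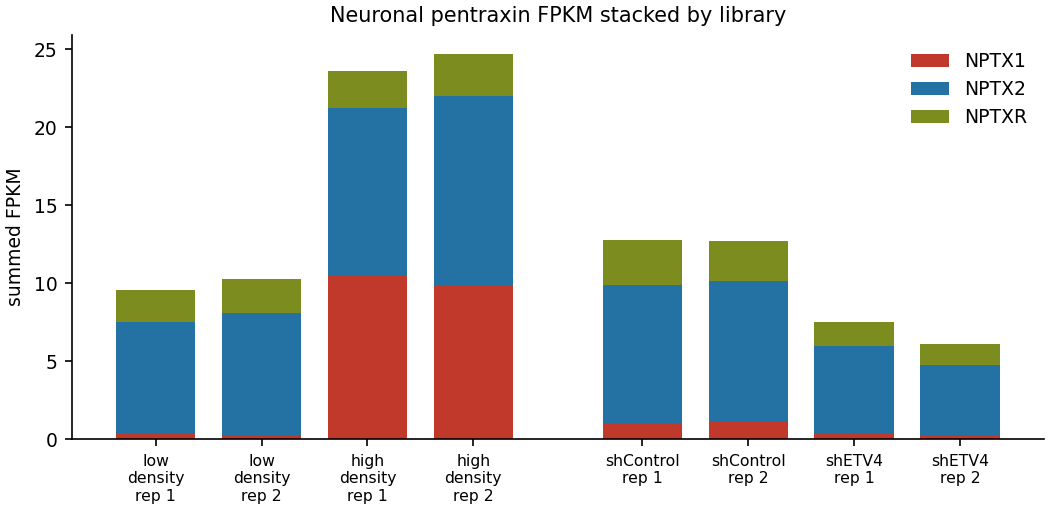
Stacked bars of the FPKM of NPTX1, NPTX2 and NPTXR in each of the 8 libraries (bar height, summed FPKM; the tables of the 2 experiments were normalized separately). NPTX1 is a thin slice except at high density, where it makes up 44.7% and 39.7% of the sum, and both shETV4 bars are lower than both shControl bars.

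ETV4 KD moved all 3 genes the other way. NPTX1 was at 1.05 and 1.13 FPKM in shControl (359 and 360 reads) and at 0.314 and 0.243 FPKM in shETV4 (105 and 78 reads). Both shETV4 libraries were well below both shControl libraries. The log2 fold change was -1.97 (SE 0.19, adjusted p = 0.000865, edgeR's quasi-likelihood test), the 54th largest fall among 17879 genes tested. In shETV4 its FPKM stood at or above only 20.4% and 18.9% of genes, against 33.5% and 34.4% in shControl.

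NPTX2 was at 8.87 and 9.0 FPKM in shControl and at 5.64 and 4.54 FPKM in shETV4. The control libraries nearly coincided, and the shETV4 libraries, which differed more between themselves, were both lower. The log2 fold change was -0.81 (SE 0.12, adjusted p = 0.00348 with edgeR). NPTXR was at 2.85 and 2.57 FPKM in shControl and at 1.57 and 1.32 FPKM in shETV4, again without overlap. Its log2 fold change was -0.91 (SE 0.13, adjusted p = 0.00350 with edgeR). Thus 3 of 3 genes were downregulated DEGs, where 7.10% of all genes tested were called lower in shETV4 and 13.0% were called in either direction. Both shETV4 libraries lay below both shControl libraries for 32.2% of all genes. Each of the 3 calls held under every one of the 12 alternative settings, but the NPTX1 value, of a gene at low FPKM, shrank to -1.66, -1.03 and -0.71 with limma on log2(FPKM + pseudocount) at pseudocounts of 0.1, 0.5 and 1. In bulk RNA, fewer cells that express a gene and less RNA per cell cannot be told apart. The study states in general terms that its experiments were replicated or repeated independently, but the sources used here do not say that these replicate libraries came from separate cultures, so the p-values measure the spread between these libraries, which may be technical.

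On the count scale the fall of NPTX1 was larger in size than that of its relatives. The log2 CPM of NPTX1 minus that of NPTX2, which is not corrected for length and is read only for its change, was -2.06 and -1.98 in shControl and -3.13 and -3.18 in shETV4. The change was -1.14, and the groups did not overlap. Against NPTXR the values were -1.53 and -1.27 in shControl and -2.39 and -2.51 in shETV4, a change of -1.05, again without overlap. NPTX2 against NPTXR changed by 0.09, with overlapping groups. An exact permutation test of 2 libraries against 2 has 6 arrangements and cannot give a two-sided p below 0.333, so it has no bearing on these changes. On the scale of log2(FPKM + 1), with limma, the fold changes of NPTX1 and NPTX2 were both -0.71 and that of NPTXR was -0.60, so the larger fall of NPTX1 depends on how low values are scaled. The summed FPKM of the family went from 12.8 and 12.7 in shControl to 7.52 and 6.11 in shETV4, and the NPTX1 share from 8.23% and 8.93% to 4.18% and 3.98%. The mean level of NPTX1 was 1.09 FPKM in shControl and 0.309 FPKM at low density. These levels come from separately normalized tables and were not tested against each other.

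The 2 experiments share no library, so their values can be set side by side. Of the 17206 genes tested in both, 293 (1.70%) were called higher at high density and lower in shETV4, and NPTX1 and NPTX2 are 2 of them. Their crowding calls come from the values that chose the family, so the 1.70% is no background for these 2 genes. Only the shETV4 part of the joint call was free of that choice. The 293 genes are 16% of the 1831 higher at high density and 23.6% of the 1240 lower in shETV4, and 73 of them passed a log2 fold change of 1 in both. Another 124 genes were higher in both. ADRA2A, which follows NPTX1 in the crowding order, was one that rose in shETV4 (log2 fold change 1.15, adjusted p = 0.0276 with edgeR). That call was lost without shControl replicate 1 (adjusted p = 0.0634) and without shETV4 replicate 2 (adjusted p = 0.109).

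**Figure D3:**
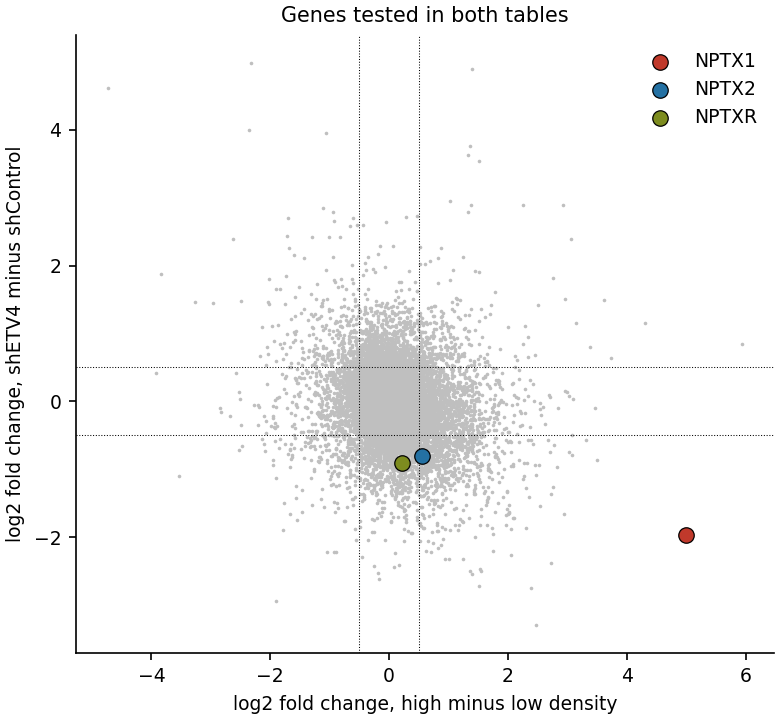
Log2 fold change of high against low density (x) and of shETV4 against shControl (y) for the 17206 genes tested in both tables, in grey, with the 3 neuronal pentraxins in colour and dotted lines at 0.5 in each direction. NPTX1 stands at 5.003 and -1.97, apart from the cloud, while NPTX2 (0.55 and -0.81) and NPTXR (0.21 and -0.91) lie close to each other within it.

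The lists that follow were written with earlier results of these data known, and no list was tested as a set. Over all genes tested, 16.1% were called in either direction after crowding, and the median log2 fold change was 0.00 in both comparisons. In shETV4, 13.0% of all genes tested were called in either direction and 7.10% were called lower. The other genes with a pentraxin domain were scarce. Of 8 listed, 4 were in the tables and none averaged 1 FPKM in the crowding table. After crowding 1 was higher and 1 lower (median 0.04), and in shETV4 0 were higher and 2 lower (median -0.61). ADGRD1, named after its values were seen, was the 1 gene of the list with both calls of NPTX1, at levels near the floor. It went from 0.03 to 0.0925 FPKM with crowding (log2 fold change 1.58). In shETV4 it went from 0.287 to 0.118 FPKM (-1.26, edgeR adjusted p = 0.0174). ADGRG6, an adhesion receptor known for its part in myelination and named after its values were seen, fell in shETV4 from 1.16 ± 0.166 to 0.609 ± 0.0663 FPKM (n = 2, log2 fold change -0.92, adjusted p = 0.00885 with edgeR). Of 5 listed partners and processing enzymes, 2 were present, and neither was called in either comparison. ADAM17, the protease that cleaves NPTXR, was at 8.11 FPKM in shControl and 7.09 FPKM in shETV4 (edgeR adjusted p = 0.197), and RCN2, a reticular calcium-binding protein reported to bind NPTX1, at 25.6 and 30.1 FPKM (edgeR adjusted p = 0.0535).

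Subunits of the receptors that neuronal pentraxins gather averaged below 3 FPKM in each group. Of 21 genes for AMPA receptor subunits and their auxiliary or scaffold proteins, 18 were tested. After crowding 4 were higher and 4 lower (median 0.05), and in shETV4 0 were higher and 3 lower (median -0.04). GRIA2 is not among the values used here. GRIA1 was at 0.589 FPKM at low density and 0.314 FPKM at high density, and GRIA3 at 0.441 and 0.402 FPKM. GRIA4, the subunit with the highest mean, went from 1.53 ± 0.246 to 1.31 ± 0.213 FPKM (n = 2) with crowding, which was not called (log2 fold change -0.37, adjusted p = 0.0693 with edgeR), though it was without low-density replicate 1 (log2 fold change -0.50) or high-density replicate 2 (-0.53). After ETV4 KD, GRIA4 fell from 2.88 ± 0.278 to 1.73 ± 0.220 FPKM (n = 2, log2 fold change -0.66, adjusted p = 0.0156 with edgeR), a call lost without shControl replicate 1 (adjusted p = 0.130). GRIA1 in shETV4 had a log2 fold change of -0.50 (edgeR adjusted p = 0.116) and GRIA3 of 0.13 (edgeR adjusted p = 0.658).

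Among proteins that accompany AMPA receptors, GRIP2, a PDZ scaffold, was the 1 gene of the list with both calls of NPTX1. It rose from 0.570 to 1.77 FPKM with crowding (log2 fold change 1.58, edgeR adjusted p = 3.13e-09) and fell from 1.24 to 0.773 FPKM in shETV4 (log2 fold change -0.68, edgeR adjusted p = 0.0327). The second call was lost without shControl replicate 1 (adjusted p = 0.0652) and without shETV4 replicate 2 (adjusted p = 0.0612). CACNG7, a transmembrane AMPA receptor regulatory protein, rose with crowding from 18.3 to 31.4 FPKM (log2 fold change 0.73). SHISA9 fell from 12.9 to 6.0 FPKM (-1.07) and CNIH3 from 2.88 to 1.65 FPKM (-0.86), both of them auxiliary subunits.

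Other synaptic organizers moved in both directions after crowding and, where called, mostly down after ETV4 KD. Of 50 listed, 44 were tested after crowding, with 9 higher and 4 lower (median 0.10). In shETV4, 42 were tested, with 1 higher and 10 lower (median -0.24). With crowding, the secreted protein LGI4 rose from 0.901 to 3.31 FPKM (log2 fold change 1.82), the C1q-like ligand C1QL1 from 1.85 to 3.57 FPKM (0.88) and the neurexin NRXN2 from 1.04 to 1.88 FPKM (0.72). LRRC4 fell from 2.99 to 1.90 FPKM (-0.71, and -0.49, under the limit, without high-density replicate 2). In shETV4, CBLN1, a secreted ligand of neurexins, fell from 2.20 to 1.03 FPKM (log2 fold change -1.08, edgeR adjusted p = 0.00512). LRRC4B fell from 1.81 to 1.08 FPKM (-0.77, a call lost without shControl replicate 2, edgeR adjusted p = 0.0606) and LGI2 from 1.28 to 0.755 FPKM (-0.76). GPC4, a heparan sulfate proteoglycan at 80.6 FPKM in shControl, rose to 136 FPKM (0.76, edgeR adjusted p = 0.00237). Of 41 organizers tested in both, NRXN2 alone was higher at high density and lower in shETV4 (-0.95, edgeR adjusted p = 0.00591).

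**Figure D4:**
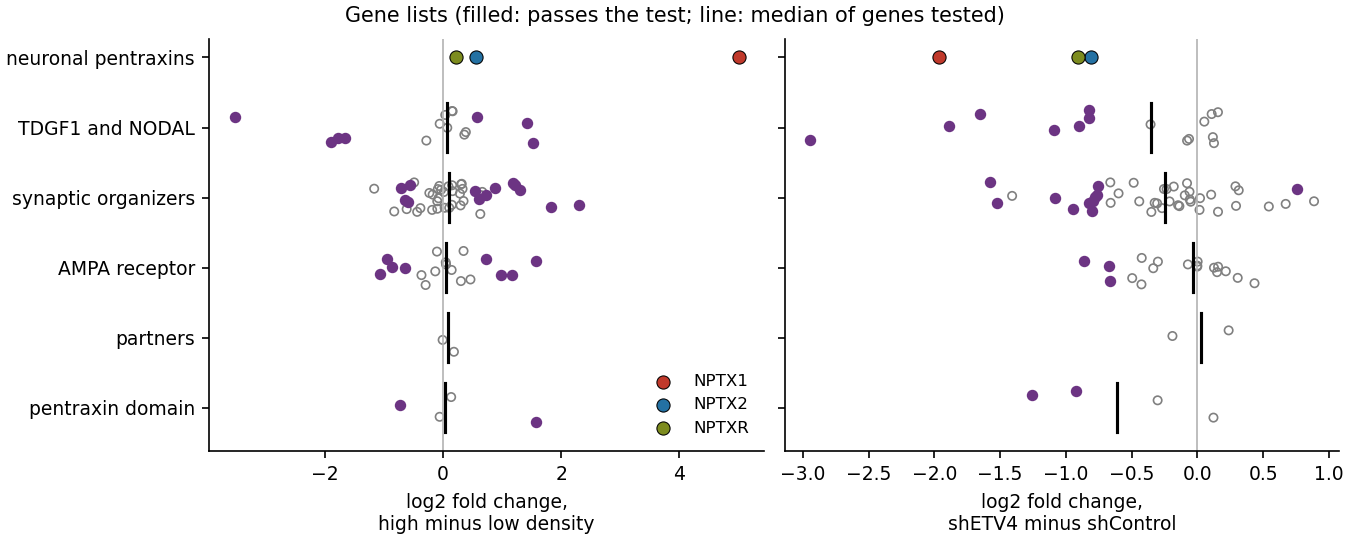
Log2 fold change of each gene tested in 5 lists and of the neuronal pentraxins, for high against low density (left) and shETV4 against shControl (right), with filled points for genes that pass the test, open points for the rest and a line at each list's median. The medians lie between 0.04 and 0.10 after crowding and between -0.61 and 0.02 after ETV4 KD.

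TDGF1 and the NODAL pathway were listed because of the reported binding of NPTX1 to TDGF1. Of 16 genes, 15 were tested. After crowding 3 were higher and 4 lower (median 0.07), and in shETV4 0 were higher and 7 lower (median -0.36). TDGF1 was abundant, at 346 FPKM at low density and 378 FPKM at high density (log2 fold change 0.07, edgeR adjusted p = 0.244). It fell after ETV4 KD from 336 ± 4.69 to 190 ± 7.82 FPKM (n = 2, log2 fold change -0.82, adjusted p = 3.86e-04 with edgeR). NODAL and its secreted antagonists went down in both experiments, unlike NPTX1. NODAL was at 10.5 and 3.46 FPKM at low and high density (log2 fold change -1.67) and at 3.54 and 1.11 FPKM in shControl and shETV4 (-1.66). LEFTY1 fell by 1.90 and 2.95 on the log2 scale and LEFTY2 by 1.78 and 1.89, with reads that may be shared between these close paralogs. CER1 fell by 3.53 with crowding and by 1.09 in shETV4, where the call (edgeR adjusted p = 0.0480) was lost without shControl replicate 2 (0.130) or shETV4 replicate 1 (0.0908). ACVR1C, a NODAL receptor below 0.5 FPKM in each group and named after its values were seen, was the 1 gene of the list with both calls of NPTX1 (log2 fold changes 1.42 and -0.90), the second lost without shControl replicate 1 (edgeR adjusted p = 0.152).

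Cell type markers were read beside NPTX1 for the cells these cultures could hold. Over all genes tested, 16.1% were called after crowding and 13.0% in shETV4. Of 9 pluripotency markers, 0 were called after crowding. Some changed by less than the limit of 0.5, such as NANOG (-0.46, edgeR adjusted p = 3.36e-06) and SOX2 (0.41, edgeR adjusted p = 6.71e-06). In shETV4, 1 was higher (LIN28A, 0.51) and 1 lower (DNMT3B, from 356.5 to 201.5 FPKM, -0.82, edgeR adjusted p = 4.64e-04). These 4 are named after their values were seen. Neuron markers summed to 134 and 143 FPKM at low density and 107 and 92.4 FPKM at high density, and to 78.3 and 87.7 FPKM in shControl and 116 and 131 FPKM in shETV4, opposite to NPTX1 in both experiments. Most of that sum was TUBB3, a beta-tubulin, which went from 111 to 72.6 FPKM with crowding and from 52.3 to 98.1 FPKM with ETV4 KD. Without TUBB3 the neuron markers summed to 27.1 and 27.9 FPKM at low density and 26.8 and 27.4 FPKM at high density, and to 30.5 and 30.9 FPKM in shControl and 26.6 and 23.6 FPKM in shETV4. After crowding these sums without TUBB3 overlapped between the groups, and in shETV4 both were lower, as NPTX1 was. Of 15 neuron markers tested after crowding, 3 were higher (ELAVL3, SLC17A7 and GAD2) and 2 lower (TUBB3 and MAP2). Of the 15, 9 were below 1 FPKM in every library. ELAVL3, GAD2 and MAP2 averaged below 1 FPKM at both densities, and SLC17A7 went from 0.287 to 1.18 FPKM. Of 14 tested in shETV4, 8 of them below 1 FPKM in every library, 2 were higher (TUBB3 and SYN1) and 2 lower (DCX and SYT1). All but TUBB3 are named after their values were seen. Of 8 neuroectoderm markers tested in each table, 2 were higher and 2 lower after crowding, and 3 were higher and 0 lower in shETV4. The 2 with the largest called changes at a mean of at least 1 FPKM, named after their values were seen, are the transcription factors SOX21 and OTX2. SOX21 rose beside NPTX1 with crowding, from 0.487 and 0.446 FPKM to 5.75 and 6.13 FPKM (log2 fold change 3.61, edgeR adjusted p = 5.18e-14). In shETV4 it rose as NPTX1 fell, from 0.735 and 0.589 FPKM to 1.54 and 2.18 FPKM (1.49, edgeR adjusted p = 0.00552). OTX2 rose in shETV4 from 2.497 and 2.81 FPKM to 15.9 and 19.3 FPKM (2.73, edgeR adjusted p = 1.03e-04), and with crowding it went from 10.99 ± 0.363 to 15.8 ± 3.39 FPKM (n = 2, log2 fold change 0.47, adjusted p = 0.0551 with edgeR), a change that was called without low-density replicate 2 (0.50) or high-density replicate 2 (0.68). The neuroectoderm markers summed to 21.8 and 23.6 FPKM at low density and 32.8 and 26.1 FPKM at high density, and to 9.51 and 11.02 FPKM in shControl and 25.8 and 32.3 FPKM in shETV4. Most of the shETV4 sum was OTX2, at 17.6 of 29.0 FPKM on average, against 2.66 of 10.3 FPKM in shControl. SOX3, another marker called at a mean of at least 1 FPKM, went the other way from SOX21 with crowding. It fell from 4.37 to 2.08 FPKM (log2 fold change -1.13, edgeR adjusted p = 1.76e-06). In shETV4 SOX3 rose from 3.68 to 5.74 FPKM (0.65, edgeR adjusted p = 0.0293). It too was named after its values were seen. PAX6 averaged below 0.05 FPKM at both densities and is not among the ETV4 KD values. The mesendoderm marker TBXT stayed below 0.1 FPKM on average in every group, and of 3 mesendoderm markers tested after crowding 1 was lower, while the 1 tested in shETV4 was not called. The part of any of these cell types in the NPTX1 values was not tested.

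The nearest protein-coding gene on each side of a member gives the local context. Beside NPTX1, ENDOV, an inosine-cleaving endonuclease gene 28748 bp away, rose with crowding from 1.24 to 1.91 FPKM (log2 fold change 0.84, edgeR adjusted p = 0.00242) but had -0.18 in shETV4 (edgeR adjusted p = 0.598). RPTOR, the mTORC1 subunit gene 66976 bp to the other side, had -0.16 and 0.00, with neither called. Beside NPTX2, TMEM130, 184930 bp away, had both calls of NPTX2. It went from 0.894 to 2.16 FPKM with crowding (log2 fold change 1.19, edgeR adjusted p = 6.97e-05) and from 3.19 to 2.11 FPKM in shETV4 (-0.60, edgeR adjusted p = 0.0425), a call lost without shControl replicate 1 (0.259) or shETV4 replicate 2 (0.103). BAIAP2L1, 216195 bp to the other side, had 0.00 and -0.06. Beside NPTXR, DNAL4, a dynein light chain gene 24254 bp away, rose with crowding from 3.03 to 4.98 FPKM (0.66, edgeR adjusted p = 8.02e-04) and had -0.34 in shETV4 (edgeR adjusted p = 0.0977). CBX6, a Polycomb gene 17394 bp away, had -0.25 and -0.04, with neither called. Neither neighbour of NPTX1 had both of its calls.

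The profile over libraries was compared by Pearson's r of log2 CPM, centred within each table, over the 8 libraries. The points share tables and groups, and no test was made. Between NPTX1 and NPTX2 r was 0.791, between NPTX1 and NPTXR 0.545, and between NPTX2 and NPTXR 0.928. Such values are common, since of 12475 genes with a mean of at least 1 FPKM in both tables, 1363 had an r to NPTX1 at least as high as that of NPTX2 and 2921 at least as high as that of NPTXR, with both counted. Among the 12475, the 5 most like NPTX1 were TSTD1 (0.996), the GDNF-family receptor RET (0.994), the cytokine-receptor kinase JAK3 (0.994), the tubulin-folding cofactor TBCD (0.992) and the kallikrein-related peptidase KLK10 (0.992). The likeness is one of shape and not of size. Their log2 fold changes were 0.43 to 1.22 with crowding and -0.17 to -0.59 with ETV4 KD. TSTD1 went from 21.2 to 42.9 FPKM with crowding and from 38.2 to 30.5 FPKM with ETV4 KD, and RET from 2.06 to 4.27 FPKM and from 2.01 to 1.61 FPKM. KLK10 alone of the 5 was called lower in shETV4 (-0.59, edgeR adjusted p = 0.0324), and that call was lost without shControl replicate 1 (0.141), shControl replicate 2 (0.181) or shETV4 replicate 2 (0.0609).

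**Figure D5:**
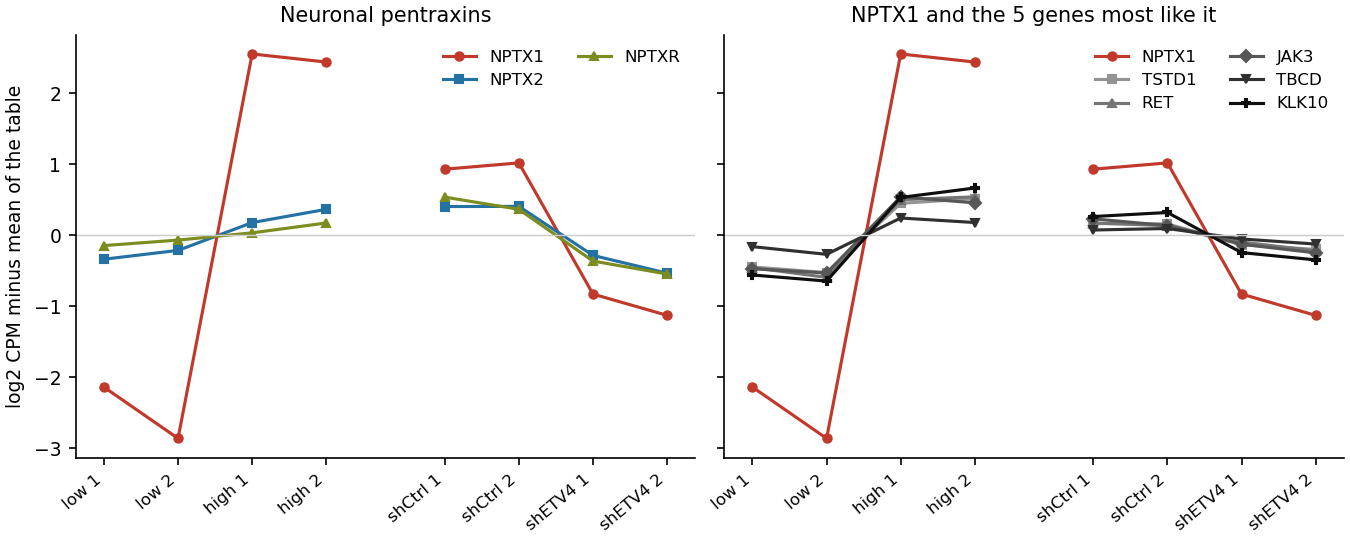
Log2 CPM minus its mean over the 4 libraries of the same table, for the 3 neuronal pentraxins (left) and for NPTX1 with the 5 genes of the highest Pearson's r to it (right), in each library, with lines joining libraries of 1 table for reading only. NPTX1 runs from -2.86 to 2.56 in the crowding table, while the other genes drawn stay within -0.64 to 0.67.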

How the data were processed

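The authors made 8 poly-A RNA libraries from H9 hESCs. Per the labels and the submitters' processing notes, reads were trimmed with Trimmomatic, mapped to GRCh37 (hg19) with HISAT2 2.1.0 and assembled with StringTie 2.1.3b. The authors deposited, for each gene and library, a read count without normalization and an FPKM, normalized for transcript length and mapped reads, in 1 table per experiment. Each gene in a table has at least 1 read in each of its libraries. Another 16 per-sample columns, and the authors' columns of fold changes and p-values, were not used.

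Each table was fitted on all its genes in R 4.3.3. The quasi-likelihood test of edgeR 4.0.16 was used after filterByExpr and TMM, with dispersions estimated robustly, and p-values were adjusted by Benjamini-Hochberg over 17672 (crowding) and 17879 (ETV4 KD) genes. The thresholds for DEGs, from the study, were 0.05 for the adjusted p and 0.5 for the size of the log2 fold change. The SE was taken from the F statistic, as the size of the fold change over the root of F. Log2 CPM used a prior count of 2. Alternatives used DESeq2 1.42.0 and limma 3.58.1. The biological coefficient of variation was 6.83% and 9.93%, so replicate spread and not depth limits the values of genes with many reads. Depth also limits genes with few reads, as NPTX1 at 78 to 121 reads. Other named genes were as low or lower, such as CER1 (35 and 17 reads at high density) and SOX21 (82 and 91 at low density). The scripts were tested on simulated counts. The ETV4 KD columns are headed only Test and were assigned to shETV4 as the remaining group of that table, and the label small was read as low density from the study's description. Whether the same replicate number marks a shared culture or batch is not stated in the sources used here.

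The genes, the lists and the tests were chosen with earlier results of these data known. Named genes are the 3 members, the gene after NPTX1 in the crowding order, up to 4 called genes per list (marker lists aside) and comparison with a mean of at least 1 FPKM, TDGF1 and the GRIA subunits, the neighbours in GENCODE's annotation on GRCh37, ETV4, 4 markers and the 5 genes most like NPTX1.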

Additional observations from a re-analysis of the deposited data

How the results depend on the processing

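The 3 members kept their direction under all alternatives run, and the ETV4 KD calls of NPTX1, NPTX2 and NPTXR held in each of 12 settings, with log2 fold changes of -2.13 to -0.71, -0.94 to -0.69 and -1.003 to -0.60 and adjusted p of at most 0.00487, 0.00779 and 0.0104. The crowding value of NPTX1 moved to 3.73 with limma on log2(FPKM + 0.5) and to 3.10 with log2(FPKM + 1), where the pseudocount is larger than its low-density level, and lay between 4.66 and 5.39 with 1 library left out. Genes called after crowding numbered 2851, against 1717 with limma on log2(FPKM + 0.5), 1256 with log2(FPKM + 1) and 1135 at an absolute log2 fold change over 1. Genes called after ETV4 KD numbered 2321, against 1325 with log2(FPKM + 1) and 761 over 1. With the replicate number as a replicate block the calls numbered 2874 and 2901. Deviations of same-numbered libraries correlated at -0.041 and 0.086. With 2 libraries per group, these values cannot show whether same-numbered libraries shared a culture or a batch. The block changed no call of the members.

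Signs turned for values near 0. BAIAP2L1 after crowding was 0.0024 without a filter, 0.0057 with at least 10 counts in every library, and 0.054, 0.056 and 0.052 with limma at pseudocounts of 0.5, 0.1 and 1. GRIA3 after ETV4 KD was -0.027, -0.035 and -0.021 with the same, and RPTOR 0.00049 without a filter. With 1 library left out, crowding values ranged from -0.0084 to 0.011 for BAIAP2L1 and from -0.46 to 0.33 for GRIA3, and ETV4 KD values from -0.38 to 0.053 for ENDOV, -0.025 to 0.032 for RPTOR and -0.12 to 0.054 for CBX6. The cause was not tested. Of the settings of other named genes, 739 kept call and direction, 31 lost the call, 8 gained it and 19 turned. The 78 to 121 reads of NPTX1 in 4 of its libraries, and replicate groups of 2, limit the precision of its fold changes.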
